A study of Homo sapiens with 12 samples.

Results

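The proteasome is the barrel-shaped protease that degrades ubiquitin-tagged proteins, p53 among them. Its core particle is built from rings of alpha subunits, which form the gate, and rings of beta subunits, some of which carry the catalytic threonine. A regulatory particle sits on the gate: a ring of ATPases unfolds the substrate, and the non-ATPase subunits of the base and lid bind ubiquitin and remove it. Under interferon, PSMB8, PSMB9 and PSMB10 replace the constitutive catalytic subunits and form the immunoproteasome, which favours peptides for antigen presentation.

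Genes were taken by symbol: PSM, a letter from A to G, then digits. Of 22564 genes in the deposited table, 46 matched, each with 1 row. PSMA8, a testis alpha subunit, and PSMB11, a thymus beta subunit, had no row and so no level here, which leaves 46 of the 48 symbols sorted into classes.

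The table came from total RNA-seq of A549 cells, an established human lung adenocarcinoma line, in 2 groups of 6 libraries. The siYTHDC1 cells received small interfering RNA against YTHDC1, the nuclear reader of the RNA mark m6A, and the siSCR cells received a scrambled control, both at 40 nM for 48 to 72 h. The labels give no further treatment or allele for either group and do not tie libraries to separate cultures. Each value below is the authors' mean normalized count over all 12 libraries, so siYTHDC1 and siSCR stand in 1 number, no difference between them is given, and the spread between libraries and the depth of each library are unknown from it. Whether the target was lower in siYTHDC1 was not analysed here. The identity of the cells was read from the same means: the epithelial genes KRT8 and KRT18 had 27600 and 14908 mean normalized counts and ALDH1A1 had 34836, while 3 of 4 blood markers and both endothelial markers had no row. The exceptions among markers of other cells were CD14 at 21.5, COL1A1 at 194 and COL3A1 at 10.8 mean normalized counts, and EPCAM, an epithelial marker, was low at 58.4.

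Proteasome genes were well expressed as a family. Their median was 1045 mean normalized counts, against 65.8 over all rows and 312 over the 14188 protein-coding rows. Of the 46 genes, 25 had a mean of 1000 or more (54.3%, against 12.9% of all rows), and 3 lay under 100. Together they held 0.492% of the summed mean normalized count of the table. To compare levels between genes, the count was divided by the length of all exons of the gene merged (kb, from the reference annotation). On this scale the family had a median of 267 per kb and a median percentile of 92.0 among rows with a length, and 25 of 46 members lay above percentile 90. The other 14142 protein-coding genes had a median of 58.0 per kb. Below percentile 50 lay 8 of 46 members: PSMA2, PSMA6, PSMB8, PSMB9, PSMB10, PSMD9, PSMG2 and PSMG4. That number depends on the length: per kb of canonical transcript, the annotation's single representative transcript, 2 of the 46, PSMB9 and PSMB10, lay below percentile 50. No test was run on any of these values, because the pooled mean has no replicate and subunits are not replicates of each other.

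**Figure D1:**
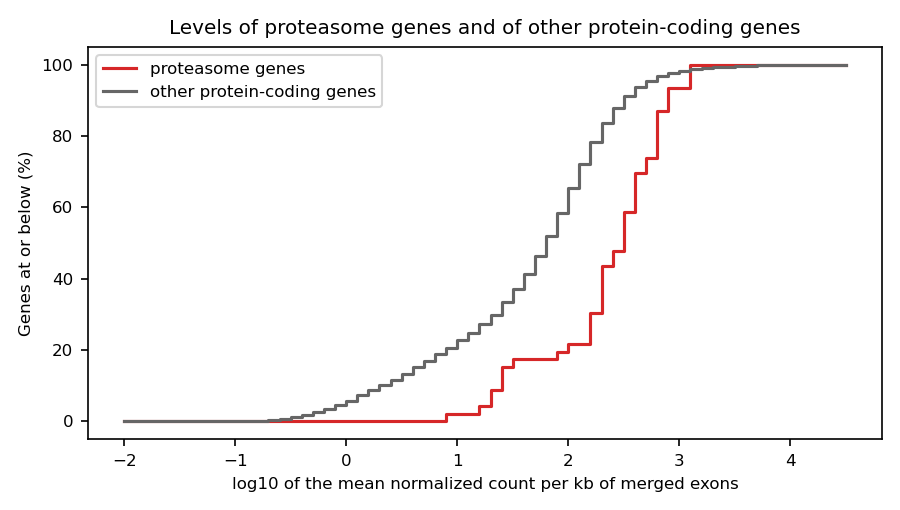
Share of genes (y axis, %) at or below each level (x axis, log10 of the mean normalized count per kb of merged exons) for the 46 proteasome genes (red) and the 14142 other protein-coding genes (grey). At 100 per kb (2 on the x axis) the curves stand at 21.7% of proteasome genes and 65.5% of the others.

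The immunoproteasome genes were far below their constitutive counterparts. PSMB9 (beta1i) had 45.8 mean normalized counts, against 907 for its constitutive counterpart PSMB6 (beta1). PSMB10 (beta2i) had 12.3, against 1319 for PSMB7 (beta2), and 56.1% of its canonical transcript lies in exons of another gene model on its strand, a point taken up with the alpha subunits. PSMB8 (beta5i) had 75.2, against 858 for PSMB5 (beta5), the subunit that most proteasome inhibitors bind. All 3 immunoproteasome genes were below all 3 constitutive ones, with no overlap. Per kb of merged exons the sum of the trio was 42.9 for PSMB8, PSMB9 and PSMB10 and 1919 for PSMB5, PSMB6 and PSMB7, a ratio of 0.0224, or 44.7-fold lower. By pair it was 45.7-fold lower for PSMB9, 97.4-fold lower for PSMB10 and 25.7-fold lower for PSMB8.

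The gap held with other gene lengths, with its size depending on the length. With the length of the canonical transcript alone, PSMB9, PSMB10 and PSMB8 were 24.4-fold, 106-fold and 12.3-fold lower than their partners. The mean normalized counts without division by length gave 19.8-fold, 107-fold and 11.4-fold. In bulk RNA, few cells with the transcript and little of it in each cell cannot be told apart. The encoded proteins are related but distinct: translated from their canonical transcripts, PSMB9 and PSMB6 shared 59.8% of 219 aligned residues, PSMB10 and PSMB7 57.8% of 270, and PSMB8 and PSMB5 65.3% of 251. The longest run of identical bases between partner transcripts was 22, and the study states 150-base reads. Pseudogenes were not compared, and whether reads were assigned to the wrong gene was not tested.

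**Figure D2:**
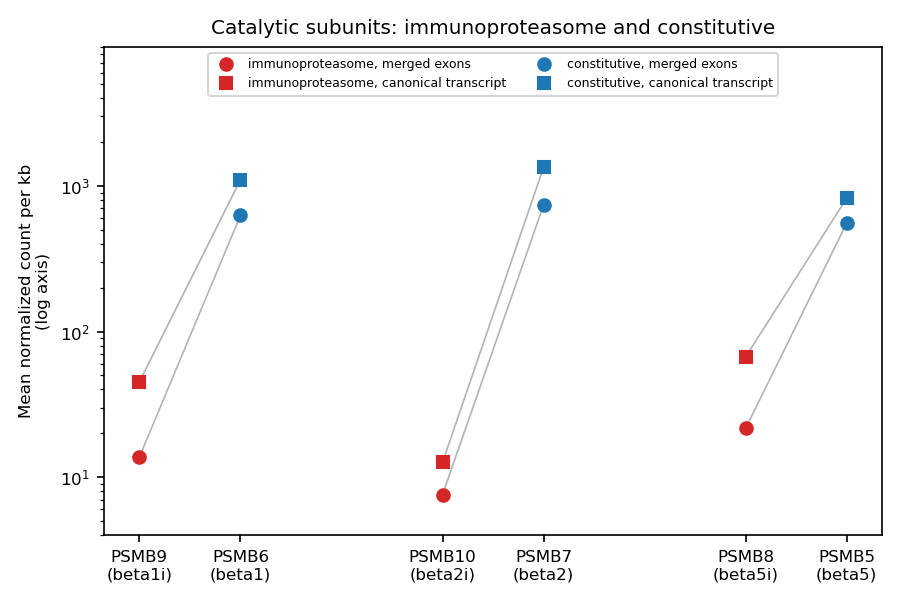
Mean normalized count per kb (y axis, log scale) of each immunoproteasome subunit (red, left of each pair) and its constitutive counterpart (blue, right), per kb of merged exons (circles) and per kb of canonical transcript (squares). Each red point lies below both blue points of its pair, with the lowest at 7.57 and 12.6 for PSMB10.

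By position, PSMB8 (chromosome 6, 32808494 to 32812456, minus strand, GRCh37) and PSMB9 (chromosome 6, 32811913 to 32827628, plus strand) lie in the major histocompatibility region, and their annotated spans overlap by 544 bases on opposite strands. TAP1, a peptide transporter gene, lies within the annotated span of PSMB9 (32812986 to 32821593). It had 265 mean normalized counts, or 55.9 per kb of merged exons, above PSMB8 at 21.6 and PSMB9 at 13.7. TAP2 had no row. PSMB10 (chromosome 16, 67968409 to 67970767, minus strand) lies apart from them. The start regions of these 3 low genes are shown with that of PSMC4, the ATPase gene with the highest level, to set low members beside a high one. Each run is 250 bases before to 50 after the RefSeq start (GRCh38.p14), 5′ to 3′ on the gene's strand, with capitals for the 2 motifs searched on either strand: TGACNNNGC, the core of the antioxidant response element that the transcription factors NRF1 and NRF2 bind, and CCAAT, the box bound by NF-Y.
PSMB9, chr6:32853942-32854241, plus strand: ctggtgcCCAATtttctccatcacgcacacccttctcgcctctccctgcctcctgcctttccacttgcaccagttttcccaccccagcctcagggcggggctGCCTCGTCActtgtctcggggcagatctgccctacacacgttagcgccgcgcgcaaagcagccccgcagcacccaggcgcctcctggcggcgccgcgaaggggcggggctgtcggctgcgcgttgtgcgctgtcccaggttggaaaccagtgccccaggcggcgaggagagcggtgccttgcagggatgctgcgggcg
PSMB8, chr6:32844630-32844929, minus strand: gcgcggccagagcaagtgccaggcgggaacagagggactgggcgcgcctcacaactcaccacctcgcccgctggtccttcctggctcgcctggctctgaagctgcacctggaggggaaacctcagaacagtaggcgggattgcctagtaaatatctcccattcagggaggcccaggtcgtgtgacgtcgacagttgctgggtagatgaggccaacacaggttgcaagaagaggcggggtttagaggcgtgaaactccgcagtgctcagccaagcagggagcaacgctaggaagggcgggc
PSMB10, chr16:67936801-67937100, minus strand: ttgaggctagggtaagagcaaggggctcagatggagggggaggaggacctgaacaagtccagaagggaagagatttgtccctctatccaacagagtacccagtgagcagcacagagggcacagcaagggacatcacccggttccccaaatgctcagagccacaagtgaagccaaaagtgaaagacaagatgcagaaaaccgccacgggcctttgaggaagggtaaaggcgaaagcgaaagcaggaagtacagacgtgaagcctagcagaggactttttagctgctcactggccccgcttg
PSMC4, chr19:39970915-39971214, plus strand: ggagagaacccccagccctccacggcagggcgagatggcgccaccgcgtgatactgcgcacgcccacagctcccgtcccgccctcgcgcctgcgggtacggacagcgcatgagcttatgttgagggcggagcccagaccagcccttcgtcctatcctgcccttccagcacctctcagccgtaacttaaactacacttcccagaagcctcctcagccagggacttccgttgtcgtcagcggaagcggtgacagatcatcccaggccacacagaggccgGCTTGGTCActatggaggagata

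PSMB9 held 1 match to each motif, PSMC4 held 1 match to TGACNNNGC and none to CCAAT, and PSMB8 and PSMB10 held neither. Among the 40 members with an entry in the promoter table, TGACNNNGC on either strand was found in 13 (32.5%), against 13.6% of all 27305 promoters of the same length. The 13 were PSMB3, PSMB9, PSMC4, PSMD1, PSMD3, PSMD5, PSMD9, PSMD12, PSME1, PSME2, PSME4, PSMG1 and PSMG2. CCAAT was found in 18 of 40 (45.0%), against 35.7% of all promoters. The motifs do not overlap in the sequences shown. A match is a string of letters in this window and no measurement of binding.

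Within the core, the alpha genes spanned a wider range than the beta genes. Per kb of merged exons the 7 constitutive beta genes had a median of 627 and the 7 alpha genes a median of 142, a ratio of 4.41. The beta genes lay within 3.47-fold of each other, from PSMB2 at 296 to PSMB3 at 1024 per kb. Between them stood PSMB1 at 325, PSMB5 at 554, PSMB6 at 627, PSMB4 at 688 and PSMB7 at 738 per kb. The alpha genes spanned 63.9-fold, from PSMA2 at 16.5 to PSMA7 at 1052 per kb, and held all 7 beta genes within their range. That span was 19.9-fold per kb of canonical transcript, 16.0-fold in mean normalized counts, and 7.41-fold per kb of merged exons without the 3 alpha genes that share exons with another gene. PSMA7 (chromosome 20, 60711789 to 60718496, minus strand) was the highest of all 46 genes on this scale. PSMA3 had 396, PSMA4 316 and PSMA5 142 per kb, and the other three were far lower: PSMA1 had 71.2, PSMA6 23.5 and PSMA2 16.5 per kb. In mean normalized counts those were 217 for PSMA1, 153 for PSMA6 and 138 for PSMA2, against 815 to 2213 for the other 4 alpha genes.

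**Figure D3:**
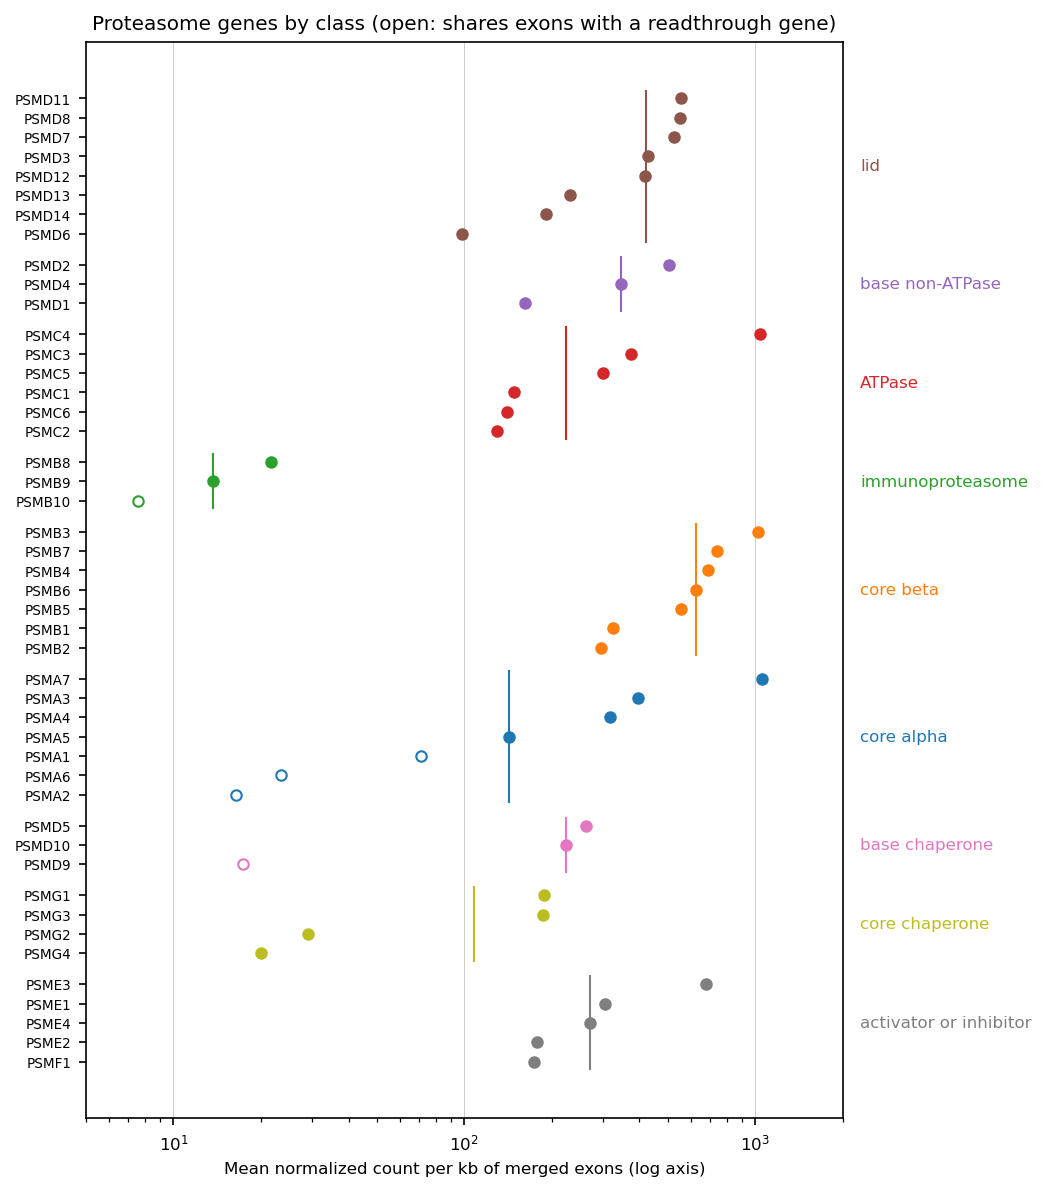
Mean normalized count per kb of merged exons (x axis, log scale) of each of the 46 proteasome genes (y axis), grouped by class, with a line at each class median. Open circles mark genes with at least 25% of the canonical transcript in exons of other genes on the same strand, a readthrough gene having the largest overlap. The open circles are PSMA1, PSMA6 and PSMA2, the lowest 3 of the 7 alpha genes, and PSMB10 and PSMD9, each the lowest of a class of 3.

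These 3 alpha genes shared most of their exons with another annotated gene. A readthrough gene is a gene model that joins the exons of neighbouring genes on 1 strand, and a read that falls in both models may not be assigned to either, depending on the counting mode. Exons of other genes on the same strand covered 100% of the bases of the canonical transcript of PSMA2 (chromosome 7, 42956427 to 42971784, minus strand). They covered 81.4% of that of PSMA6 (chromosome 14, 35747839 to 35786699, plus strand) and 67.0% of that of PSMA1 (chromosome 11, 14526420 to 14665181, minus strand). In PSMB10 the cover was 56.1% and in PSMD9 28.8%. For each of these 5 genes the other gene with the largest overlap was a readthrough model, whose own share was not computed. PSMB5 shared 10.4% with a gene that is no readthrough model, and the other 40 members shared none on their strand. Of these 5 covered members 4 lay below percentile 50 per kb of merged exons, and 1, PSMB10, per kb of canonical transcript. PSMA1, PSMA6 and PSMA2 were the lowest 3 of the 7 alpha genes. PSMB10 and PSMD9 were each the lowest of a class of 3, and the chaperone class was set after seeing the data.

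With the canonical length, the 3 covered core genes, PSMA1, PSMA6 and PSMA2, ran from 96.2 to 182 per kb with a median of 149, against 214 to 1917 with a median of 1101 for the 11 uncovered ones, with no overlap. Without them the alpha median was 356 per kb of merged exons, and the ratio of beta to alpha medians was 1.76 in place of 4.41. Outside the family, 305 protein-coding genes had at least 50% of the canonical transcript covered on their strand, with a readthrough model as the largest overlap. Their median was 47.2 per kb of that transcript (quartiles 11.2 and 136), against 102 (quartiles 21.8 and 244) for the 12138 genes with no cover on their strand. The readthrough models themselves had 45.1 mean normalized counts at PSMB10, 9.22 at PSMA6 and 2.22 at PSMD9, and no row at PSMA1 and PSMA2. The part of exon sharing in the low values of these 5 genes was not tested. PSMB8 and PSMB9 shared no base of their canonical transcripts with another gene.

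**Figure D4:**
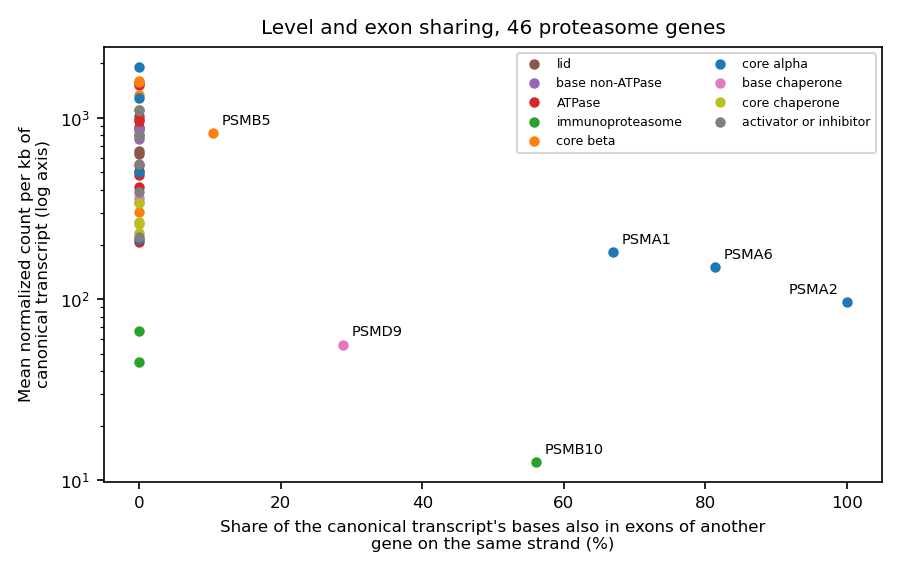
Mean normalized count per kb of canonical transcript (y axis, log scale) against the share of that transcript's bases that lies in exons of another gene on the same strand (x axis, %), 1 point per proteasome gene, coloured by class. PSMA1, PSMA6, PSMA2 and PSMB10 stand at 56.1% or more with levels of 182 per kb or less, while the genes at 0% reach 1917 per kb and hold PSMB8 and PSMB9 as their lowest.

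In the regulatory particle PSMC4, the Rpt3 ATPase, had the highest level per kb of merged exons, while PSMD11 was above it in mean normalized count and PSMD8 per kb of canonical transcript (1567 for PSMD8, 1516 for PSMC4). The 6 ATPase genes had a median of 224 per kb of merged exons, against 361 for the 14 core genes (ratio 0.620). PSMC4 had 1043, PSMC3 373, PSMC5 299, PSMC1 149, PSMC6 140 and PSMC2 130 per kb, so that PSMC4 stood apart from the other 5 on this scale. The gap was not smaller with the longest transcript length, where PSMC4 had 1516 and the next, PSMC3, 537. It was smaller with the canonical and median transcript lengths and without division by length. Per kb of canonical transcript PSMC4 had 1516 and the next, PSMC5, 961. With the median transcript length PSMC4 had 1856 and the next, PSMC1, 1503. In mean normalized counts PSMC4 had 2659 and the other 5 between 849 and 1279. Of the canonical transcript of PSMC1, 83.2% lies in exons of NRDE2 on the opposite strand, and whether counting used strand is not stated, so its value is uncertain, as is that of PSMC5, covered over 13.7% by FTSJ3. The order of ATPases and core was not stable: without division by length the ratio was 1.03, and with the median transcript length it was 1.14.

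The ATPases are close relatives, with 40.1% to 52.1% identical residues over their 15 pairs. All 6 carried the nucleotide-binding Walker A motif in their translated sequence, and no other member did. PSMC1, PSMC3 and PSMC4 end in a hydrophobic residue, a tyrosine and any residue, the tail by which ATPases dock into pockets of the alpha ring. The other 3 ATPases did not, while PSME4, PSMF1 and PSMG1 outside the ATPases ended in the same pattern. Between any 2 ATPase transcripts the longest identical run was 18 bases.

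The 8 lid genes had a median of 422 per kb of merged exons, against 224 for the ATPases (ratio 1.89). PSMD11, the Rpn6 clamp between lid and core, led with 554 per kb and 3927 mean normalized counts, the highest count of the family. PSMD8 had 552, PSMD7 525, PSMD3 427 and PSMD12 417 per kb, and PSMD13 231, PSMD14 191 and PSMD6 98.4 per kb. PSMD14 is the deubiquitinase of the lid and was the only member whose translated sequence held the zinc protease motif searched, at residue 113, while its partner PSMD7 did not hold it. PSMD14 had 1395 and PSMD7 1418 mean normalized counts, and 51.6% of the PSMD7 canonical transcript lies in exons of a gene on the opposite strand. Of the base, the scaffold genes PSMD2 and PSMD1 had 2499 and 2545 mean normalized counts and the ubiquitin receptor PSMD4 1045. Per kb of canonical transcript these 3 were nearly level at 858 for PSMD2, 766 for PSMD1 and 792 for PSMD4, whereas per kb of merged exons they differed by 3.13-fold.

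The chaperones that assemble the core were low for the family. The 4 chaperones of the core had between 209 and 405 mean normalized counts, with PSMG1 at 405, PSMG3 at 369, PSMG2 at 361 and PSMG4 at 209. Per kb of merged exons they had a median of 108, against 361 for the 14 core genes. Per kb of canonical transcript they were even, from 231 for PSMG1 to 338 for PSMG2. Among the chaperones of the base, PSMD5 had 1155, PSMD10 (gankyrin) 533 and PSMD9 152 mean normalized counts, and PSMD9 is the one that shares exons with a readthrough model.

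The activators differed by type. PSME3, the nuclear PA28 gamma, had 3499 mean normalized counts (679 per kb of merged exons) and PSME4, the PA200 activator, 2819 (271 per kb). PSME1 and PSME2, the interferon-inducible PA28 alpha and beta, lie 4394 bases apart on chromosome 14 and had 540 and 637 mean normalized counts. Their levels per kb of merged exons were 304 for PSME1 and 178 for PSME2, with a mean of 241, against 271 for PSME4 (ratio 0.888). Per kb of canonical transcript this order turned round, with 682 against 389 (ratio 1.75), since the merged exons of PSME2 are far longer than its 793-base canonical transcript. PSMF1, the PI31 inhibitor, had 1797 mean normalized counts and 173 per kb of merged exons.

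Other genes of the pathway, from a list of 12 partners, all had rows, between 242 and 3567 mean normalized counts. The highest were KIAA0368, which encodes a proteasome scaffold, at 3567 and NFE2L1, the gene of NRF1, which drives proteasome genes when activity falls, at 3479. The ubiquitin ligase UBE3C had 2892, the deubiquitinases USP14 and UCHL5 1835 and 875, and the ubiquitin receptor ADRM1 1101 mean normalized counts. The thioredoxin-like TXNL1 had 842, the core maturation factor POMP 790, the protease DDI2, which cleaves NRF1, 698, the nuclear import factor AKIRIN2 451, the lid subunit SHFM1 276 and the ATPase-binding factor PAAF1 242 mean normalized counts. Per kb of merged exons 5 of the 12 were above the family median of 267, namely NFE2L1 (591), ADRM1 (514), KIAA0368 (422), UBE3C (314) and USP14 (307), and the other 7 were below it, down to SHFM1 at 25.8. SHFM1 had 602 per kb of canonical transcript, above the family median of 556 on that scale.

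Pseudogenes of the family had low counts, while its antisense genes lay above the median of all rows. Of 44 annotated pseudogenes 6 had a row, led by PSMC1P1 at 11.9 and PSMD10P2 at 4.76 mean normalized counts. Their sequences were not compared with those of the parent genes, and whether shared reads were left out of these counts was not tested. The 3 antisense genes with a row were PSMD5-AS1 at 231, PSMG3-AS1 at 84.9 and PSMD6-AS2 at 71.6 mean normalized counts. The 46 members lay on 17 chromosomes, with 7 each on chromosomes 14 and 17. PSMB8 with PSMB9, and PSME1 with PSME2, were the only pairs closer than 50 kb.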

How the data were processed

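Total RNA was treated with DNase, depleted of ribosomal RNA and made into stranded TruSeq libraries, per the labels. Alignment by the authors used STAR and hg19, gene counts came from HTSeq with GENCODE release 19, and DESeq2 normalized them. The sequencing batch was a term in the authors' model for comparing the groups. No adjustment for batch was made to the levels here. Counting mode and strand were not given in the sources used here. The signal used is the mean normalized count per gene that the authors deposited, 1 value for all 12 libraries. The other 5 numeric columns hold the authors' own comparison of the groups (fold change, its error, statistic and p-values) and were not used, so no group comparison and no test was made, and depth per library is unknown.

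Lengths, positions and exon overlap came from GENCODE release 44 on GRCh37, the same build, which can differ from the release counted on. Of 22564 rows, 21907 (97.1%) had a length, 21798 by ID and 109 by a unique symbol (PSMB3 among the members). Levels are the mean per kb of merged exons. Members, lists, ratios and alternatives were chosen with earlier results of these data known. All members are named, as are the listed partners and the 5 highest relatives. Lengths by longest, median or canonical transcript, counts without length, and sums over rows were alternatives. The last alternative left out members with at least 25% cover on their strand and a readthrough model as the largest overlap. The canonical length, the exon-sharing comparison, the classes of chaperones and of base subunits, and the last alternative were chosen after seeing the data. In place of the protein table first planned, coding sequences of canonical transcripts were translated and aligned globally (BLOSUM62, gap costs 10 and 0.5, ends free). Promoters came from RefSeq (GRCh38.p14). The ratio code was tested on simulated data. Python 3.11.15, pandas 2.3.3, numpy 2.4.6, Biopython 1.88 and matplotlib 3.10.9 were used.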

Additional observations from a re-analysis of the deposited data

How the results depend on the processing

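No paired analysis was possible because the table gives 1 mean over all libraries. For the same reason no library could be left out. Summing rows changed none of the 6 ratios, since each symbol had 1 row. With the longest transcript as length, the ratio of immunoproteasome to constitutive catalytic genes was 0.0195, beta to alpha 3.60, ATPase to core 0.701, lid to ATPase 1.46, core spread 70.1-fold and PA28 to PA200 0.909. With the median transcript these were 0.0282, 2.52, 1.14, 1.12, 32.9 and 0.233. Without division by length they were 0.0432, 1.47, 1.03, 1.63, 16.0 and 0.209, and with the canonical transcript 0.0382, 5.16, 0.634, 1.70, 19.9 and 1.75. Leaving out the 5 members that share exons with a readthrough gene gave 0.0184 for immunoproteasome to constitutive, 1.76 for beta to alpha, 0.404 for ATPase to core and 7.41 for core spread, and the same value as before for lid to ATPase and PA28 to PA200. The ATPase to core ratio thus turned above 1 with the median transcript and without length, and PA28 to PA200 turned above 1 with the canonical transcript. The ratios of immunoproteasome to constitutive, beta to alpha and lid to ATPase kept their direction in all these settings. Core spread is above 1 by construction. Covered members were left out only per kb of merged exons. In mean normalized counts, the uncovered alpha genes PSMA3, PSMA7 and PSMA4 had 1231, 1844 and 2213 and PSMA5 815, against a beta median of 1197. Beta above alpha therefore did not hold on that scale without the covered genes. The median percentile of members was 88.8 among rows with a mean of at least 10, 87.7 on the mean normalized count and 93.7 per kb of canonical transcript, the last chosen after seeing the data. The stricter motif TGACTCAGC was found in 0 of 40 member promoters and 0.564% of all promoters.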
